A study of Mus musculus with 4 samples.

Results

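The IFIT and IFITM families are small groups of interferon-induced antiviral proteins. The genes described are Ifit1, Ifit2, Ifit3, Ifitm1, Ifitm2 and Ifitm3, taken as named members of the 2 families. No threshold was set on their values, but they and the gene lists below were chosen with earlier results of these data known. They are 6 of the 24346 gene symbols in the expression tables. They were measured by sequencing of polyadenylated RNA from MC38, a cell line of mouse colon carcinoma. Of the 4 libraries, 2 carry the label WT (wild type) and 2 the label Arid5a KO (knockout), and no treatment is named for either group. How the knockout was made, and whether it is 1 clone, is not given in the sources used here. All 6 genes were above 0 in every library, and all 6 passed the filter on low values, which was set at an average of 1 FPKM. FPKM, the unit used throughout, is the number of fragments scaled to transcript length and to library depth.

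The knocked-out gene itself, Arid5a, codes for an RNA-binding protein and was higher under the KO label. It stood at 0.225 and 0.124 FPKM under the WT label and at 2.16 and 1.77 FPKM under the KO label. Its log2 change came to 1.33 ± 0.13 (SE; limma, adjusted p = 0.0013). Its transcript was thus not lower under the KO label. Whether the knockout lowers this transcript is not known from the sources used here, and the reason for the rise was not tested. Directions are given by the labels as they stand, and if the labels of the groups were exchanged, every rise, fall, rank and share given by label would turn. Estimated depth was 10300000 to 15400000 fragments per library. Of 14 epithelial and intestinal markers, among them Cdh1, Epcam and Cdx2, 0 passed the filter, and their summed level was 0.564 to 1.13 FPKM. Of 10 mesenchymal and fibroblast markers, 7 passed the filter, of which 1 rose and 4 fell, and the list was not uniform in level. Of all tested genes, 24.4% were called higher and 23.3% lower under the KO label. Vim, an intermediate filament protein, was at 1163 to 1367 FPKM and fell by 0.22 on the log2 scale. The matrix genes Fn1, Col3a1 and Dcn changed by -0.91, -1.88 and -1.70, and Col1a1 rose by 1.27. Acta2 and Thy1 were at or under 0.0573 FPKM in every library. The epithelial markers of a colon carcinoma were thus absent or close to it in all 4 libraries. Of 20 leukocyte markers, 3 passed the filter, with Cd68 and S100a8 lower and Cd14 higher under the KO label, and 9 were listed at 0 throughout, among them Cd3e, Itgam and Adgre1. The list summed to 19.6 and 23.4 FPKM under the WT label and to 15.3 and 16.5 FPKM under the KO label. Ptprc, the marker of all leukocytes, was at or under 0.0854 FPKM in every library. The call of S100a8 was lost without WT replicate 2 or KO replicate 2 (limma, adjusted p of 0.187 and 0.164). It was also lost with either other pseudocount, without the filter, with quantile normalization, with either other moderation and with the replicate block, at adjusted p of 0.0544 to 0.17 (limma). The call of Cd14 was lost without WT replicate 1 or KO replicate 2 (limma, adjusted p of 0.0917 and 0.0618).

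IFIT proteins are cytosolic proteins built from tetratricopeptide repeats. Ifit1 binds the 5' end of RNA whose cap lacks ribose methylation and blocks its translation, and Ifit2 and Ifit3 act in complexes with it or on other viral RNAs. IFITM proteins are short membrane proteins that hinder the fusion of enveloped viruses with the cell, Ifitm1 mainly at the cell surface and Ifitm2 and Ifitm3 mainly in endosomes. Type I interferon induces both families through the receptor chains Ifnar1 and Ifnar2, the kinases Jak1 and Tyk2, and ISGF3, a transcription factor complex that holds Stat2 and Irf9. ISGF3 binds the interferon-stimulated response element (ISRE) in the promoters of such genes.

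The 3 Ifit genes lie together on chromosome 19, and the 3 Ifitm genes on chromosome 7 (GRCm38, GENCODE M21). Ifit2 runs from 34550694 to 34576419, Ifit3 from 34583531 to 34588731 and Ifit1 from 34640871 to 34650009, all on the plus strand. Ifitm2 runs from 140954837 to 140955987 and Ifitm3 from 141009586 to 141010770 on the minus strand, and Ifitm1 from 140967221 to 140969825 on the plus strand. All 6 are protein-coding.

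Promoter windows of 300 bases, 250 before and 50 from the annotated start on, were taken from RefSeq (GRCm38.p6) and matched all 6 genes by symbol. Each was searched on both strands for the core of the ISRE, GAAA and GAAA separated by 2 bases of any kind, which on the other strand is TTTC and TTTC. The core was found in the windows of Ifit1, Ifit3, Ifitm2 and Ifitm3, 4 of 6 genes, whereas 3.44% of all 32851 promoter windows of this length held it. Below are the windows of these 4 genes and, for comparison, that of Ifitm1, whose window held no core. They are written 5' to 3' in the direction of the gene, with matches to the core in capitals.
Ifit1: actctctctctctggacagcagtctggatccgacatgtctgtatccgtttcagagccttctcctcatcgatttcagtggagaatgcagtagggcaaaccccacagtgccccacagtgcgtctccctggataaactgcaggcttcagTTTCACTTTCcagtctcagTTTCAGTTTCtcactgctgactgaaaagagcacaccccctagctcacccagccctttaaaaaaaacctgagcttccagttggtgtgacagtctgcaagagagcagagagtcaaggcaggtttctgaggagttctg
Ifit3: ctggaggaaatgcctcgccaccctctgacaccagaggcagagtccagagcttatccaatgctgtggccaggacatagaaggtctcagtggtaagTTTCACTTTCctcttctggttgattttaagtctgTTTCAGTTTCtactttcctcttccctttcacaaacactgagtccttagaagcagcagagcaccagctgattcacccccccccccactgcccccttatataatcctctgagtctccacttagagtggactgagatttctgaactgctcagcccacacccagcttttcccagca
Ifitm3: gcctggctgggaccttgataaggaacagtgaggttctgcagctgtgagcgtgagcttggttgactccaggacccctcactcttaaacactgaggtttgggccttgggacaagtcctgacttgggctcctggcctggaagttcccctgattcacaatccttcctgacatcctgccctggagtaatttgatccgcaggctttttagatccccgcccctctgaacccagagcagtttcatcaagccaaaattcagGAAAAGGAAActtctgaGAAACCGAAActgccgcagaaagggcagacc
Ifitm2: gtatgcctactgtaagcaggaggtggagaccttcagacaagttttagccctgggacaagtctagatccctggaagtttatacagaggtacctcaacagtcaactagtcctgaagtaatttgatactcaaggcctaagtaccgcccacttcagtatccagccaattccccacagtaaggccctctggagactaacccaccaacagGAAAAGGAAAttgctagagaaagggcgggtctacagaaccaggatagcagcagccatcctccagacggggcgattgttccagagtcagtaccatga
Ifitm1: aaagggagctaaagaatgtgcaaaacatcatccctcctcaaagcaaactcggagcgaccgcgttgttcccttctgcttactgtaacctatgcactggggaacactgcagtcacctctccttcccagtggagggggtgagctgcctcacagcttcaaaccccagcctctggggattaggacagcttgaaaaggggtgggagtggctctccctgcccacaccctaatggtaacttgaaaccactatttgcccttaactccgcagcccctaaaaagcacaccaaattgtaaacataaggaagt
The windows are chr19:34640639-34640938 for Ifit1 and chr19:34583279-34583578 for Ifit3, both on the plus strand. Those of the Ifitm genes are chr7:141010695-141010994 for Ifitm3 and chr7:140955912-140956211 for Ifitm2 on the minus strand, and chr7:140967826-140968125 for Ifitm1 on the plus strand. The RefSeq start of Ifitm1 lies inside the GENCODE gene, after its first base, so that other starts of this gene were not searched.

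Ifit1 and Ifit3 each held 2 matches, and both carried the same 2 words, TTTCACTTTC and TTTCAGTTTC. These began 104 and 85 bases before the start in Ifit1 and 156 and 122 bases before it in Ifit3. Ifitm3 held 2 matches, GAAAAGGAAA and GAAACCGAAA, both in the 50 bases from the start on. Ifitm2 held 1, GAAAAGGAAA, beginning 46 bases before the start, the same word as the first of Ifitm3. Neither of the 2 windows of Ifit2 held the core. The interferon-gamma activated site, TTC and GAA separated by 3 bases of any kind, which reads the same on both strands, was found once in a window of Ifit2 and once in that of Ifitm3, where it overlaps the ISRE match GAAACCGAAA, against 8.3% of all windows. A match is a description of the letters, and its absence says only that the letters are not in these windows.

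Transcript levels of the families differed widely (plot of FPKM by library). In every library the order was Ifitm3, Ifitm2, Ifitm1, Ifit1, Ifit2 and Ifit3, from highest to lowest. Neighbours in this order did not overlap within a group, except Ifit2 and Ifit3 under the WT label, where Ifit2 was at 7.88 and 7.48 FPKM and Ifit3 at 7.60 and 6.83 FPKM. Ifitm3 ranked between 71 and 102 among all symbols in the 4 libraries. Ifitm2 ranked between 193 and 225. The Ifit genes lay lower, with Ifit1 between ranks 5102 and 5997. Summed FPKM of the 3 Ifitm genes was 59.5 and 63.7 times that of the 3 Ifit genes under the WT label and 80.0 times in both labelled KO.

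**Figure D1:**
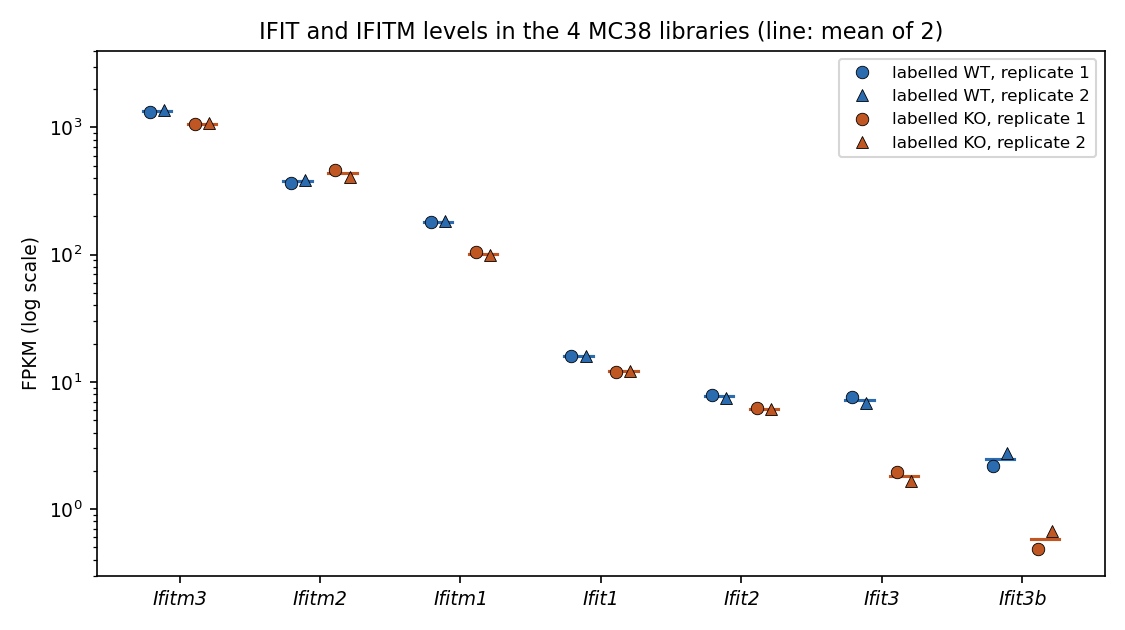
FPKM on a log axis of the 6 members and of Ifit3b in each library, with 1 point per library and a line at the mean of the 2 libraries of a group. Both libraries labelled KO lie below both labelled WT for every gene shown except Ifitm2, where they lie above, and the gap is widest for Ifit3 and Ifit3b.

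The comparison of the libraries labelled WT with those labelled Arid5a KO asks which transcripts differ between them. Of the 6 members, 5 fell under the KO label, and Ifitm2 was not called. Ifit3 had the largest log2 change, -1.55, followed by Ifitm1 at -0.84, and Ifit1, Ifitm3 and Ifit2 lay between -0.38 and -0.28. The share of all 10827 tested genes called lower was 23.3%, and 47.6% were called in either direction. Calls were made with limma on log2(FPKM + 1), at 0.05 after Benjamini-Hochberg adjustment over all tested genes. The groups did not overlap for any of the 6 members, as for 77.5% of all tested genes. Without overlap, 38.2% of tested genes were lower and 39.4% higher under the KO label, against 5 and 1 of the members. The median log2 change of all tested genes was 0.0056.

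Ifit3, which bridges IFIT proteins and antiviral signalling adaptors, was at 7.60 and 6.83 FPKM under the WT label and at 1.95 and 1.66 FPKM under the KO label. Both libraries labelled KO were far below both labelled WT, with means of 7.21 ± 0.545 and 1.81 ± 0.206 FPKM (SD, n = 2). The mean was 3.99 times higher under the WT label. Its log2 change came to -1.55 ± 0.095 (SE; limma, adjusted p = 0.000371), a scale that understates the change of genes near 1 FPKM. Only 93 tested genes, or 0.859%, had a more negative value. The levels rest on about 179 and 124 fragments under the WT label and 30.9 and 29.1 under the KO label.

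Ifit3 has a close paralog, Ifit3b, which lies between Ifit3 and Ifit1 on chromosome 19 (34607970 to 34613401, plus strand). Of the 50-base windows of the Ifit3 transcript, 51.2% also occur in the Ifit3b transcript, so the split of fragments between them is uncertain. Ifit3b was at 2.2 and 2.77 FPKM under the WT label and 0.484 and 0.679 FPKM under the KO label, and its log2 change came to -1.14 ± 0.13 (SE; limma, adjusted p = 0.00229). The listed values of both genes were low in the same 2 libraries, but with shared windows they are not independent readings. Ifit3b rests on about 8.93 and 13.8 fragments under the KO label. The sum of the pair was 9.80 and 9.60 against 2.44 and 2.34 FPKM. It varied less between libraries of a group than either gene did, and its log2 change came to -1.66 (limma, adjusted p = 0.00015), in a fit that was added after the data were seen. The ratio of Ifit3 to Ifit3b was 3.45 and 2.46 under the WT label and 4.03 and 2.45 under the KO label, so that the groups overlapped. The RefSeq promoter window of Ifit3b held the same 2 ISRE words as that of Ifit3.

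Ifit1, the sensor of incompletely capped RNA, was at 16 and 16.1 FPKM under the WT label and 12 and 12.2 FPKM under the KO label. The replicates lay close together, and the mean fell by 24.5% under the KO label. Its log2 change came to -0.38 ± 0.046 (SE; limma, adjusted p = 0.00252). Ifit2, which binds AU-rich RNA and promotes cell death when abundant, was at 7.88 and 7.48 FPKM against 6.26 and 6.08 FPKM. Its groups were separated by a smaller gap, and its log2 change came to -0.28 ± 0.062 (SE; limma, adjusted p = 0.018). The call of Ifit2 was lost whichever library was left out, at log2 changes of -0.31 to -0.24 and adjusted p of 0.0517 to 0.103 (limma). Windows shared with other genes were 7.13% for Ifit1, nearly all of them with Ifit1bl2, and 0 for Ifit2. Ifit1bl2 was at or under 0.349 FPKM in every library.

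The makeup of the IFIT sum differed between the groups (plot of shares by library). Ifit3 made up 24.1% and 22.5% of the summed FPKM of Ifit1, Ifit2 and Ifit3 under the WT label, and 9.65% and 8.35% under the KO label. Ifit1 rose in share from 50.8% and 52.9% to 59.4% and 61.1%, although its own level was lower. The ratio of Ifit1 to Ifit2 differed less, from 2.03 and 2.15 to 1.92 and 2.00. The ratio of Ifit1 to Ifit3 was 2.10 and 2.35 under the WT label and 6.16 and 7.32 under the KO label. For single ratios, an exact permutation test of 2 against 2 libraries cannot give a two-sided p under 0.333, so these are descriptions.

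**Figure D2:**
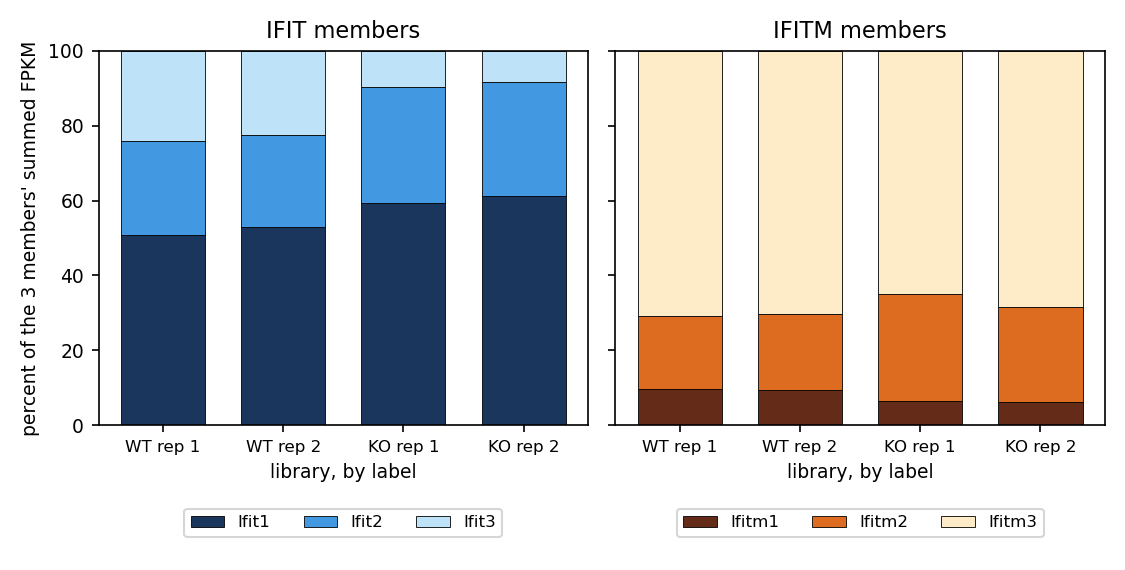
Share, in percent, of each member in the summed FPKM of its family's 3 members, with 1 stacked bar per library. Ifit3 takes a smaller part of the IFIT bars labelled KO (9.65% and 8.35%) than of those labelled WT (24.1% and 22.5%), and Ifitm2 a larger part of the IFITM bars labelled KO.

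Ifitm1, the family member found mainly at the cell surface, was at 179.6 and 185 FPKM under the WT label and 105 and 98.7 FPKM under the KO label. Both libraries labelled KO were well below both labelled WT, with means of 182 ± 3.63 and 102 ± 4.17 FPKM (SD, n = 2). Its log2 change of -0.84 ± 0.038 (SE; limma, adjusted p = 0.000182) was more negative than that of 97.4% of tested genes.

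Ifitm3, which restricts influenza virus among others, was the most abundant member, at 1326 and 1362 FPKM under the WT label and 1054 and 1089 FPKM under the KO label. The groups were clearly separated, and the mean fell by 20.3% under the KO label. Its log2 change came to -0.33 ± 0.029 (SE; limma, adjusted p = 0.00105). Although the change was smaller than that of Ifit3, it was the largest of the 6 in absolute level, from a mean of 1344 to 1071 FPKM.

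Ifitm2, a close relative of Ifitm3, was the only member whose level was higher under the KO label. It was at 366 and 388 FPKM under the WT label and at 462 and 406 FPKM under the KO label. The groups did not overlap, but the libraries labelled KO differed from each other by more than the gap between the groups. Its log2 change came to 0.20 ± 0.067 (SE), with a 95% interval from 0.03 to 0.37 before adjustment over all genes, and it was not called (limma, adjusted p = 0.0596). Without KO replicate 2 it was called, at 0.29 (limma, adjusted p = 0.0162). Without any one of the other 3 libraries it was not, with log2 changes of 0.10 to 0.24. Of the 50-base windows of its transcript, 48.5% also occur in other annotated transcripts. Those of Gm45717, an overlapping gene on the same strand that is not among the listed symbols, hold 36.1%. How fragments from shared windows were assigned is not known, so the value of Ifitm2 is uncertain. For Ifitm1 and Ifitm3 such windows numbered 53 of 1056 and 63 of 629.

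Within the libraries, the 3 Ifitm genes did not keep their proportions. The ratio of Ifitm2 to Ifitm1 was 2.04 and 2.10 under the WT label and 4.41 and 4.11 under the KO label. The ratio of Ifitm3 to Ifitm2 was 3.62 and 3.51 against 2.28 and 2.68, and Ifitm2 went from 19.6% and 20.1% of the IFITM sum to 28.5% and 25.5%. Being ratios within a library, these do not depend on the scaling between libraries. They show unequal change and not which gene moved. The summed level of the 3 genes was 1903 ± 44.2 FPKM under the WT label and 1606 ± 19.2 FPKM under the KO label (SD, n = 2).

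**Figure D3:**
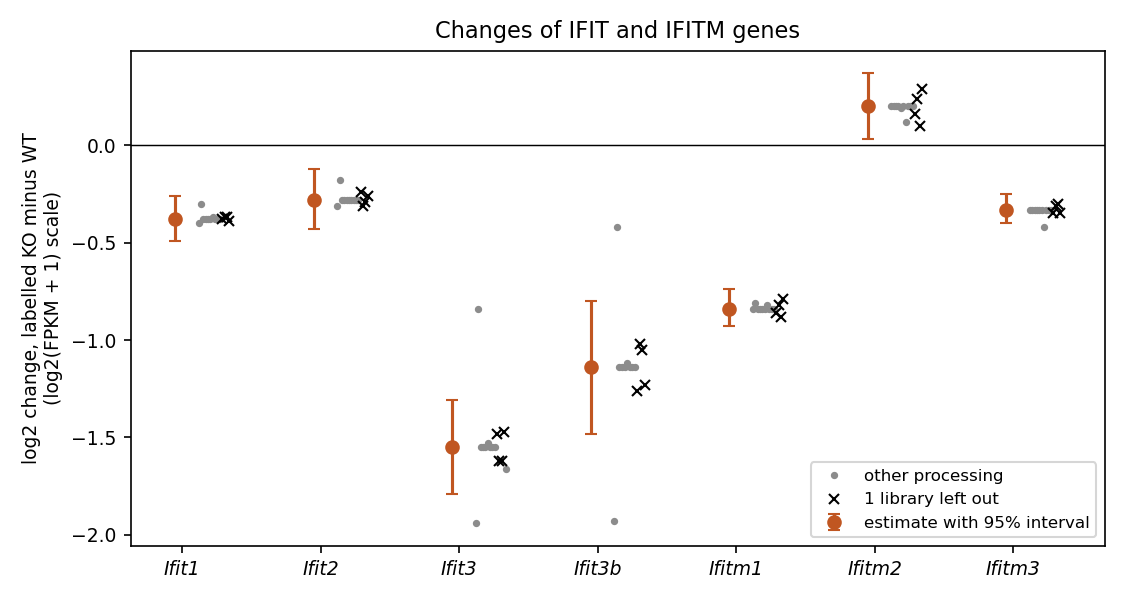
Log2 change of each gene, labelled KO minus WT, on the log2(FPKM + 1) scale, with its 95% interval, beside the values under other processing and with 1 library left out. Ifitm2 alone lies above 0, and the pseudocount moves the lowly expressed Ifit3 and Ifit3b most.

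Other listed genes of the 2 families were low in MC38 cells. Apart from the 6 members and Ifit3b, 6 further symbols were listed, and none passed the filter. Ifit1bl1 and Ifit1bl2 stayed at or under 0.349 FPKM. Ifitm5, known from bone, was at 0 and 0.508 FPKM under the WT label and 0.970 and 0.524 FPKM under the KO label. Ifitm6 was at 0.391 and 0.255 against 0.584 and 0.526 FPKM. Ifitm7 was listed at 0 in all 4 libraries, and Ifitm10 in 3 of them.

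Genes most like each member in pattern were sought by the distance between centred log2 values over the 4 libraries. The search left out genes of the 2 families, Ifit3b among them, and symbols of the Gm, Rik, Mir, Snor and Snhg kinds. Of the tested genes searched, those most like Ifit3 were Wisp2 and Sgcd (distance 0.090 each) and Sepp1 (0.102). Wisp2, a matricellular protein, went from 8.10 and 7.53 to 2.29 and 2.07 FPKM. Those nearest to Ifitm1 were Tmem150a (0.041), Rgs17 (0.044) and Ptges (0.059). Ptges, a prostaglandin E synthase, went from 32.8 and 32.4 to 19.1 and 17.7 FPKM. Nearest to Ifit1 were Mcur1, Zfp369 and Acadm, to Ifit2 Prdm9, Mrpl13 and Tax1bp1, to Ifitm2 Taf8, Ccdc34 and Rapgefl1, and to Ifitm3 Scamp4, Nop16 and Nkrf, at distances of 0.006 to 0.032.

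The signalling chain upstream of the families changed less than Ifit3 and Ifitm1 did, by the values (plot of pathway lists). All 9 listed genes of the interferon receptors, Janus kinases and ISGF3 passed the filter, of which 2 rose and 2 fell, with a median of 0.0. For comparison, 24.4% of all tested genes were called higher and 23.3% lower. Irf9, the DNA-binding subunit of ISGF3, changed by -0.18 (limma, adjusted p = 0.0479) and the kinase Tyk2 by -0.30 (0.0332). Jak1 rose by 0.28 and the interferon-gamma receptor chain Ifngr2 by 0.19. Stat2, another subunit, averaged 20.6 ± 0.76 FPKM against 21.7 ± 0.375 FPKM (SD, n = 2), with a log2 change of 0.07, and was not called (limma, adjusted p = 0.246). Calls of Tyk2 and Ifngr2 were lost whichever library was left out (limma, adjusted p of 0.0728 to 0.134 and 0.0833 to 0.191). That of Irf9 was lost without either WT library or KO replicate 1 (limma, adjusted p of 0.194, 0.113 and 0.152). Without the filter on low values and with the replicate block, the calls of Tyk2, Ifngr2 and Irf9 were lost as well, at adjusted p of 0.0571 to 0.0833 (limma), and that of Irf9 also with quantile normalization and without a trend (0.0511 and 0.077).

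Among 8 tested regulatory factors and feedback inhibitors, 2 rose and 5 fell, with a median of -0.22. The shares over all tested genes were 24.4% higher and 23.3% lower. Isg15, a ubiquitin-like protein that is itself strongly induced by interferon, went from 348 and 333 to 201 and 186 FPKM, a change on the log2 scale of -0.81. Usp18, which removes Isg15 and dampens receptor signalling, changed by -0.45, Socs3 by -0.45, Irf3 by -0.23 and Socs1 by -0.21. Irf7, which amplifies interferon induction, rose by 1.01, from 5.50 and 4.86 to 11.6 and 11.2 FPKM, and Irf1 rose by 0.26. Irf7 thus went against the 5 members that fell. It lies 255711 bases from the start of Ifitm3, in a stretch of chromosome 7 where most tested genes rose, as described below. The call of Socs1 was lost whichever library was left out (limma, adjusted p of 0.0619 to 0.154). Irf3 lost it without either WT library or KO replicate 2 (limma, adjusted p of 0.0966, 0.164 and 0.105), and Socs3 without WT replicate 1 or KO replicate 2 (0.0864 and 0.0568). Without the filter and with the replicate block, Irf3 and Socs1 lost their calls too, at adjusted p of 0.0527 to 0.0696 (limma), and Irf3 also without a trend (0.064).

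Of 9 tested nucleic acid sensors and adaptors, 0 rose and 7 fell, with a median of -0.38. Among all tested genes, 24.4% were called higher and 23.3% lower. Dhx58, a regulator of RNA sensing, changed by -1.74, Zbp1, a sensor of Z-form nucleic acid, by -1.66, the endosomal sensor Tlr3 by -1.12 and the RNA sensor Ifih1 by -0.45. Interferon transcripts themselves were hardly detected. Of 20 listed interferon genes, 18 were at 0 in all 4 libraries, Ifnb1 was at 0.156 FPKM in KO replicate 2 only and Ifnab at 0.21 FPKM in KO replicate 1 only.

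Cap methylation enzymes and protein partners of the 2 families showed no common direction, with 2 of 9 tested rising and 4 falling and a median of -0.01. Over all tested genes, 24.4% were called higher and 23.3% lower. Zmpste24, a protease that acts with IFITM proteins, changed by -0.50, from 57.4 and 54.9 to 38.8 and 39.9 FPKM. Cd81, a tetraspanin found with Ifitm1, rose by 0.67, from 76.7 and 80.1 to 121 and 131 FPKM. The translation factor subunits bound by IFIT proteins parted, with Eif3e at -0.28 and Eif3c at 0.26. The cap methyltransferases Cmtr1 and Cmtr2, whose mark protects RNA from Ifit1, changed by -0.14 and -0.27. Both lost their call whichever library was left out (limma, adjusted p of 0.0736 to 0.13 and 0.051 to 0.126).

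**Figure D4:**
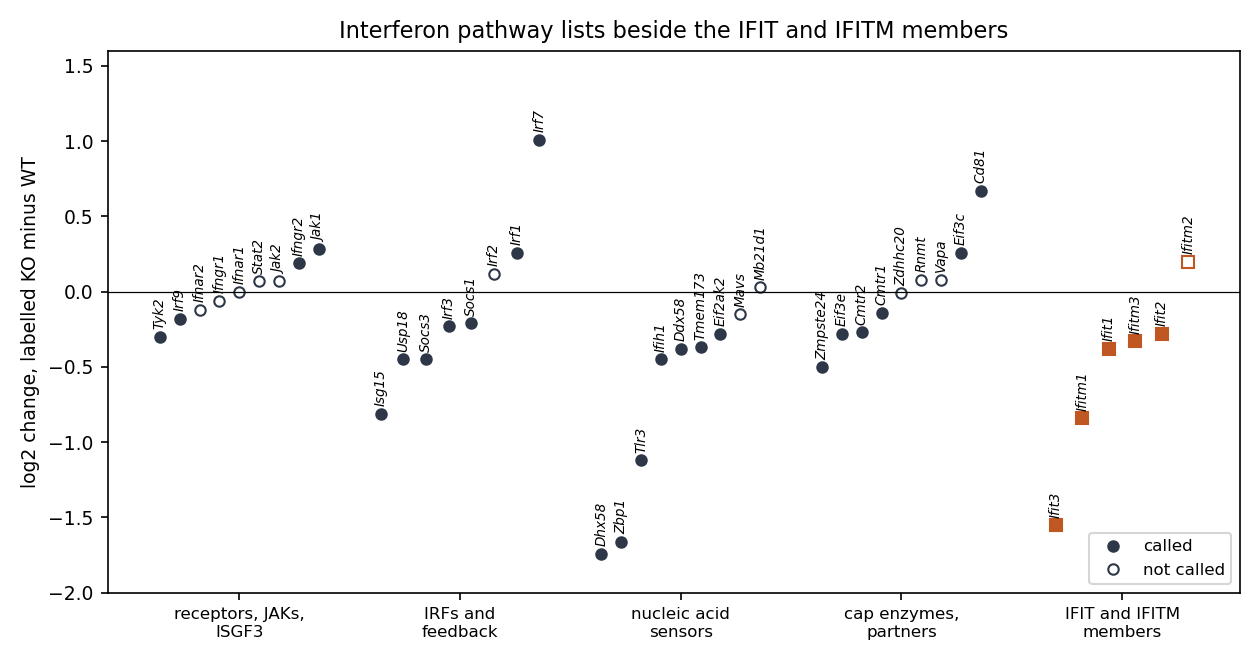
Log2 change, labelled KO minus WT, of the tested genes of 4 lists and of the 6 members, with filled symbols for called genes. Of the 9 sensors 7 lie below 0 as called genes, Irf7 stands at 1.01, and the receptors, kinases and ISGF3 subunits lie between -0.30 and 0.28.

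The genes around the 2 clusters went different ways (plot of genes by distance). Within 250 kb of the Ifit genes, 3 other genes were tested, of which 0 rose and 2 fell, beside 23.3% of all tested genes called lower. Those 2 were Ifit3b and Lipa, the lysosomal acid lipase, which changed by -0.55, from 23.6 and 23.5 to 15.5 and 16 FPKM. The third, Pank1, was at 0.09 and not called (limma, adjusted p = 0.379).

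Around the Ifitm genes, 13 other genes were tested within 250 kb, of which 11 rose and 0 fell, with a median of 0.48. Of all tested genes, 24.4% were called higher. The proteasome subunit Psmd13 went from 66.8 and 67.4 to 106 and 98.4 FPKM, a change on the log2 scale of 0.60. Rnh1, an inhibitor of ribonucleases, went from a mean of 63.4 to 99.3 FPKM, a change of 0.64. Urah rose by 1.36, Rassf7 by 0.77, Zfp941 by 0.54, Sirt3 by 0.48, Ano9 by 0.48, Ptdss2 by 0.43, Hras by 0.42, Phrf1 by 0.38 and Bet1l by 0.26. Urah was low, at 0.279 and 0 FPKM under the WT label and 1.46 and 2.44 FPKM under the KO label. The size of its change depended on the pseudocount, with 3.35 at 0.1 and 0.43 at 5. The 2 not called were the nearest to Ifitm3 on its far side, B4galnt4 at -0.26 (limma, adjusted p = 0.0545) and Sigirr at -0.08 (0.234). Against the median of these 13 genes, the log2 change of Ifitm1 was lower by 1.31 and that of Ifitm3 by 0.81, and Ifitm2, although above 0, was lower by 0.28. Of these calls, those of Sirt3, Ano9, Bet1l, Ptdss2 and Zfp941 were each lost without at least 1 of the libraries, and B4galnt4 was called lower with robust moderation or the replicate block (limma, adjusted p of 0.0394 and 0.0481). The number called higher was 7 without KO replicate 2 and 8 or 9 without any one of the other libraries. The number called higher was also 8 without the filter on low values, 9 with the replicate block and 10 without a trend. Sirt3 lost its call in each of these settings, Ano9 without the filter and with the block, and Bet1l without the filter. Whether the change of the surrounding genes bears on the level of the Ifitm genes was not tested. On the whole of chromosome 7, 188 of 760 tested genes rose and 141 fell, with a median of 0.03.

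**Figure D5:**
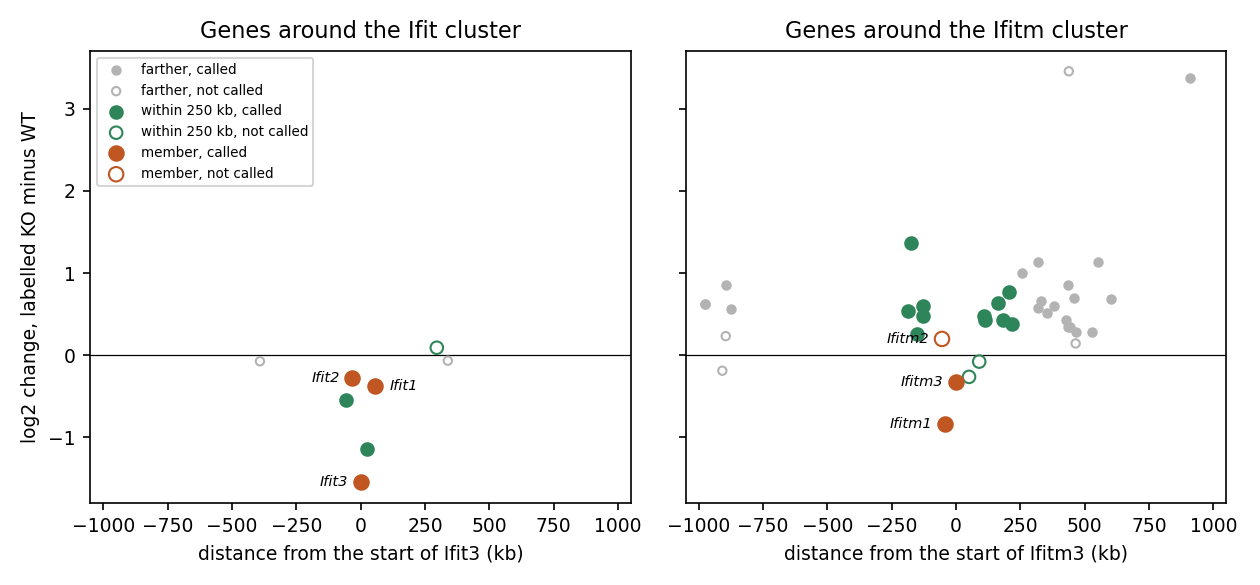
Log2 change, labelled KO minus WT, of all tested genes by distance in kb from the start of Ifit3 (left) or Ifitm3 (right), with the members marked and filled symbols for called genes. Ifitm1 and Ifitm3 lie below 0 at -0.84 and -0.33, among neighbours within 250 kb whose median is 0.48.

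The ISRE core in a promoter window went with both directions of change. Among 8319 tested genes with a RefSeq window, 305 held the core, of which 93 (30.5%) fell and 73 (23.9%) rose. Of all 8319, 23.0% fell and 24.8% rose. Of the 4 members that held it, Ifit1, Ifit3 and Ifitm3 fell and Ifitm2 was not called, and of the 2 without it, Ifit2 and Ifitm1, both fell.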

How the data were processed

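Per the labels' protocols, RNeasy served for extraction and TruSeq stranded mRNA for the libraries. The submitters' processing notes name Cufflinks 2.2.1, TopHat2 2.0.13 with Bowtie2 2.2.3, SAMtools 0.1.19 and the mm10 genome, while settings, annotation and strand handling are not given in the sources used here. Each library has 1 deposited table of FPKM values made by the authors.

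Values were analysed as log2(FPKM + 1). Genes averaging 1 FPKM or more were tested with limma 3.58.1 in R 4.3.3. The settings were lmFit, eBayes with a trend, no block, two-sided, and Benjamini-Hochberg over 10827 genes. The steps were also run on simulated data with independent noise and few changed genes. These differ from the data here, so that run does not show whether the calls are sound. Errors are SE of log2 changes or SD over 2 libraries. Python 3.11.15 with pandas 2.3.3 and matplotlib 3.10.9 served for the rest. FPKM corrects for length and depth, but close paralogs share fragments.

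Depth was estimated from low values, which are multiples of 1 fragment. Of these, 85.2% to 86.1% of ratios between libraries lay within 1% of ratios of whole numbers up to 6. The fit on transcript length placed 88 of 141 genes within 3%, so depths are approximate. Fragment numbers use the longest GENCODE transcript. Whole counts per gene were not recovered, and no count model was used.

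Separate cultures are not stated for the libraries of a group, so p-values may measure technical spread. The members and lists were chosen with earlier results of these data known. Of the listed genes, 2 were left out and are not reported here. Named genes were the members, Arid5a and called genes of each list (all if 5 or fewer per direction, else the 4 largest). The 3 searched genes nearest in pattern to each member and tested genes within 250 kb were also named. Stat2, genes named as markers or for shared sequence, and uncalled family genes were named after values were seen. Alternatives covered the pseudocount, filter, scaling, moderation, block and each library, and for Ifit3 also its sum with Ifit3b, added later.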

Additional observations from a re-analysis of the deposited data

How the results depend on the processing

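Directions of the 6 members held in all 84 combinations of member and alternative, and the side of the threshold held in 79. For Ifit3, these include its sum with Ifit3b, a fit added after the data were seen, and not the filter of 5 FPKM. The 4 lost calls were all of Ifit2, with 1 library left out, when its log2 change ran from -0.31 to -0.24. Ifitm2, at 0.10 to 0.29 with 1 library left out, was called only without KO replicate 2. Ifit3, Ifitm1, Ifit1 and Ifitm3 stayed called throughout, except that Ifit3 is below a filter of 5 FPKM and could not be tested there. The pseudocount set the size for Ifit3, with -1.94 at 0.1 and -0.84 at 5. The 3 other scalings moved the median of all genes by 0.0051 or less on the log2 scale, and quantile normalization gave -0.42 for Ifitm3 and 0.12 for Ifitm2. Genes called over the whole table numbered 5159, and 3216 to 3974 with 1 library left out, the lowest without WT replicate 2 and 3325 without WT replicate 1. Such fits leave 1 library alone in its group, which is assumed to vary like the other group. Genes around the Ifitm cluster called higher numbered 11, and 7 to 9 with 1 library left out. That number was 8 without the filter, 9 with the replicate block and 10 without a trend. Over the whole table, 4673 genes were called with the replicate block, and no call of a member changed. Deviations of same-numbered libraries correlated at 0.138 across genes, and with only 2 pairs the numbers are not taken to pair the samples. Of 47 other genes, 574 of 646 combinations kept their side of the threshold, 70 lost a call, 2 gained one and 0 reversed.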

Other observations

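The rise of the genes around the Ifitm cluster extended beyond 250 kb, a range looked at after the values were seen. As a reference for the counts below, 24.4% of all tested genes were called higher and 23.3% lower. Leaving out the members, 11 of 14 tested genes in the 2 Mb before Ifitm3 on chromosome 7 rose and 0 fell (limma, adjusted p under 0.05), with a median log2 change of 0.56. In the next 2 Mb after it, 26 of 30 rose and 0 fell, with a median of 0.56, and in the 2 Mb beyond that 12 of 14 rose and 0 fell, with a median of 0.58. From 2 to 4 Mb before Ifitm3, 3 of 6 rose and 0 fell, with a median of 0.35. The steps farther off were mixed: from 12 to 14 Mb before it, the step with the most tested genes, 7 of 52 rose and 9 fell, with a median of -0.01, whereas from 18 to 20 Mb before it 6 of 12 rose and 0 fell, with a median of 0.15. Irf7, which rose, lies in the raised stretch, 255711 bases from the start of Ifitm3. Cd81, the largest rise among the partners of the 2 families, is also on chromosome 7, from 143052739 to 143067934. Tollip, an adaptor of innate immune signalling listed at a log2 change of 3.37, lies 907737 bases from Ifitm3. Within 1 Mb of Ifitm3, 11 of 13 tested genes near the cluster and 20 of 24 farther off rose and 0 fell, while 2 of the 3 members fell, Ifitm1 and Ifitm3.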
